A study of Mus musculus with 6 samples.

Results

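The genes described here are 42 nuclear genes of mitochondrial complex I, measured by RNA-seq in skin wounds of diabetic mice. They were picked by name from a table of 33184 Ensembl genes, and comprise 6 core subunits, 29 accessory subunits and 7 assembly factors. All 42 reached the mean of 0.5 FPKM that admitted 16005 genes to the test. FPKM are read counts scaled to the length of the gene and to the read depth of the library, so levels of different genes are compared per length.

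All mice carried the dbdb genotype, which leaves them without a functional leptin receptor and makes them obese and diabetic, and a round skin wound of 6 mm was cut in each. Control wounds (NC, 3 libraries) were injected around the edge with the control NC-siRNA 1 day after injury, and the other wounds (labelled SFRP2-siRNA, 3 libraries) with siRNA against Sfrp2, a secreted modulator of Wnt signalling. Whole wound tissue was taken 4 days after injury according to the protocol, whereas the sample titles name day 3. Age and sex were not given in the labels, no uninjected or non-diabetic wound was analysed here, and nothing states whether the 3 numbered SFRP2-siRNA libraries received 1 siRNA sequence or different ones. The labels do not say that the 3 libraries of a group came from separate animals, so the p-values measure the spread between these libraries. In whole tissue, fewer cells of a type and less RNA per cell cannot be told apart.

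Complex I, NADH:ubiquinone oxidoreductase, is the entry point of the mitochondrial respiratory chain for electrons from NADH. Its matrix arm oxidises NADH in the N module and passes the electrons along iron-sulphur clusters to ubiquinone in the Q module, and its membrane arm, with a proximal and a distal part, pumps protons. Core subunits carry out the catalysis, and some of them are encoded in mitochondrial DNA. Accessory subunits surround and stabilise the core, and assembly factors build the enzyme without remaining in it. The enzyme is abundant in brown fat, heart and oxidative muscle, and in healing skin many cells also draw energy from glycolysis.

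The siRNA target was examined first. Sfrp2 stood at 11.6, 40.6 and 14.1 FPKM in NC 1, NC 2 and NC 3 and at 50.6, 54.6 and 55.2 FPKM in SFRP2-siRNA 1, 2 and 3. The target was thus higher in all 3 of the siRNA-labelled libraries (log2 fold change 1.45 ± 0.43 SE by limma, unadjusted p = 0.0125, adjusted p = 0.518, exact permutation p = 0.1), contrary to what the label says. Directions are therefore stated throughout for the libraries labelled SFRP2-siRNA, not for loss of Sfrp2. Library depth was 42925444 to 47117132 reads. SFRP2-siRNA 1 stood apart from the other 5 libraries. Its correlations with them over log2 values were 0.889 to 0.930, and those among the other 5 were 0.951 to 0.976. The summed level of 5 hair follicle keratin and trichohyalin genes was 20.8 FPKM in it and 2181 to 4710 FPKM in the others. Keratinocyte markers (Krt5, Krt14, Krt1, Krt10, Trp63 and Dsp) were present in every library (3374 to 6673 FPKM in sum), as the tissue label requires.

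The 42 genes were lower almost throughout in the libraries labelled SFRP2-siRNA. The log2 fold change, on the scale log2(FPKM + 1) with NC as the reference, was below 0 for 41 of 42 members, for 6 of 6 core, 28 of 29 accessory and 7 of 7 assembly genes, against 28.2% of the 16005 genes tested. The count over the members was 42 with median-of-ratios scaling (49.9% of all genes) and with mitochondrially encoded genes left out of the scaling (40.2%), and 40 with equal sums (20.8%). The median was -0.49 over the core genes, -0.42 over the accessory genes and -0.22 over the assembly genes, and 0.13 over all genes tested. Relative to that shift of all genes, the medians were -0.62, -0.54 and -0.34.

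No member had both an adjusted p under 0.05 and an absolute log2 fold change greater than 1, nor did any other gene (0% of all genes tested). The smallest adjusted p of any gene was 0.518 by limma and 0.520 by voom on reads recovered from the FPKM values. At an unadjusted p under 0.05, limma gave 1533 genes, 458 of them lower (2.86% of all genes). By voom there were 1491, of which 445 were lower (2.86% of the genes it tested). Among the members 8 of 42 were lower at that level by limma and 9 by voom. That count rested on single libraries, at 3 without SFRP2-siRNA 2 (2.17% of all genes), 5 without SFRP2-siRNA 3 (1.89%) and 15 without NC 2 (2.52%). The groups did not overlap, with all 3 libraries labelled SFRP2-siRNA below all 3 NC libraries, for 18 of 42 members, namely 4 core, 11 accessory and 3 assembly genes, against 628 genes or 3.92% of all. No member lay wholly higher, as 2226 genes did. The balance of the directions over all genes depended on the scaling. With median-of-ratios scaling, 1259 genes lay wholly lower and 844 wholly higher, and without mitochondrially encoded genes in the sum 913 and 743, while 27 and 26 of the 42 members then lay wholly lower. At an unadjusted p under 0.05, 458 genes were lower and 1075 higher as deposited, and 770 and 422 with median-of-ratios scaling. With 3 libraries against 3, the smallest p the exact permutation test allows is 0.1.

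**Figure D1:**
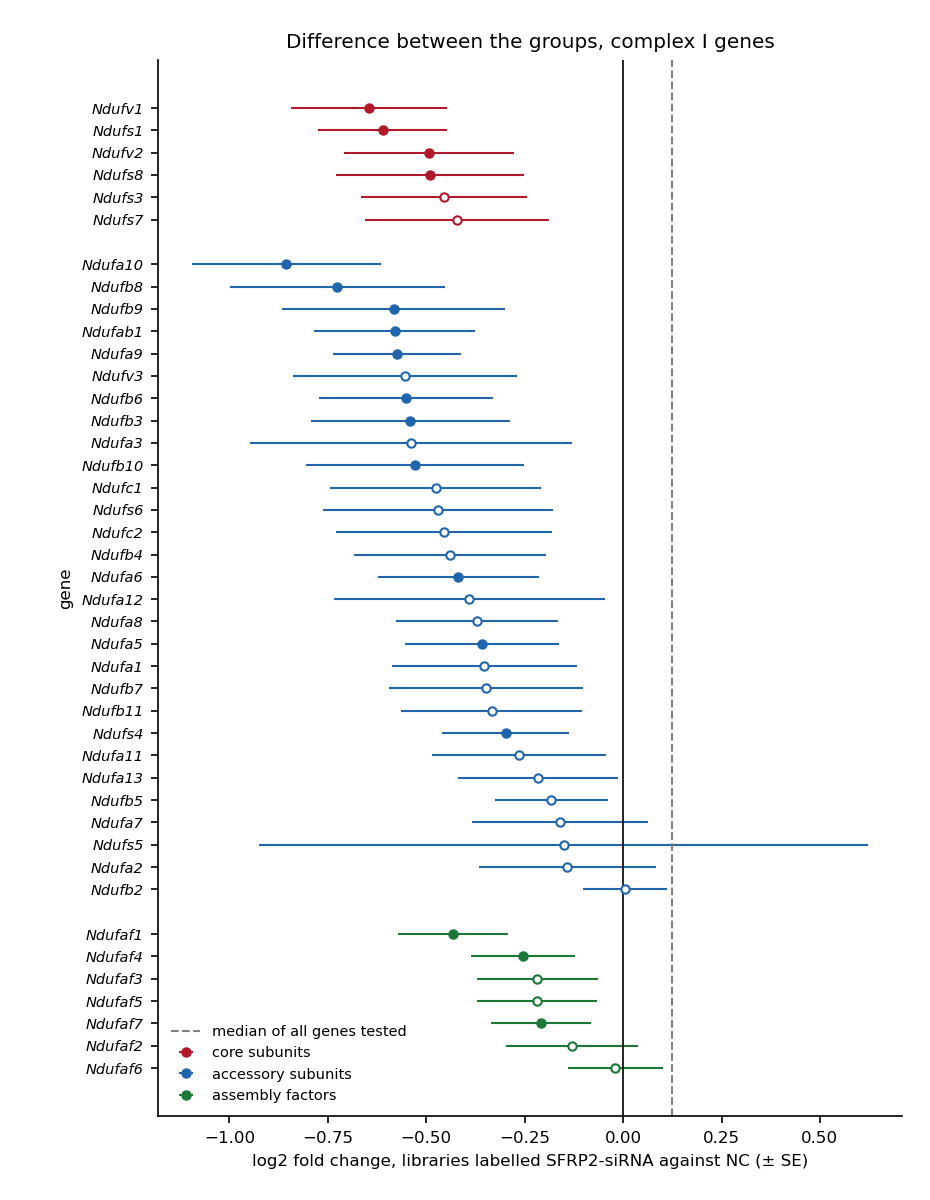
Log2 fold change (x axis, libraries labelled SFRP2-siRNA against NC on log2(FPKM + 1), bars ± SE of the limma fit, n = 3 and 3) for each of the 42 genes (y axis), with core, accessory and assembly genes apart. Filled points mark the 18 genes whose groups do not overlap, the dashed line is the median of all 16005 genes (0.13), and Ndufb2 alone lies above 0 as deposited, but not with median-of-ratios scaling (-0.07) or without mitochondrially encoded genes (-0.04).

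The library NC 1 set much of the size of these differences. It held the highest value of 37 of 42 members, and SFRP2-siRNA 2 the lowest of 38. Relative to the mean of NC 2 and NC 3, the median subunit stood at 1.55 times in NC 1 and at 0.937, 0.770 and 0.903 times in SFRP2-siRNA 1, 2 and 3. The mean centred log2 level of the 35 subunits was 0.62 in NC 1, -0.06 in NC 2 and 0.09 in NC 3, and -0.04, -0.41 and -0.19 in the libraries labelled SFRP2-siRNA, so that NC 2 and SFRP2-siRNA 1 overlapped. Without NC 1 the medians became -0.29 for core, -0.18 for accessory and -0.19 for assembly genes (0.07 for all genes), with 40 of 42 members still below 0. Without SFRP2-siRNA 2 the accessory median was -0.30 and 38 of 42 members were below 0. Without SFRP2-siRNA 1, the library that stood apart, the medians were -0.56, -0.49 and -0.30.

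**Figure D2:**
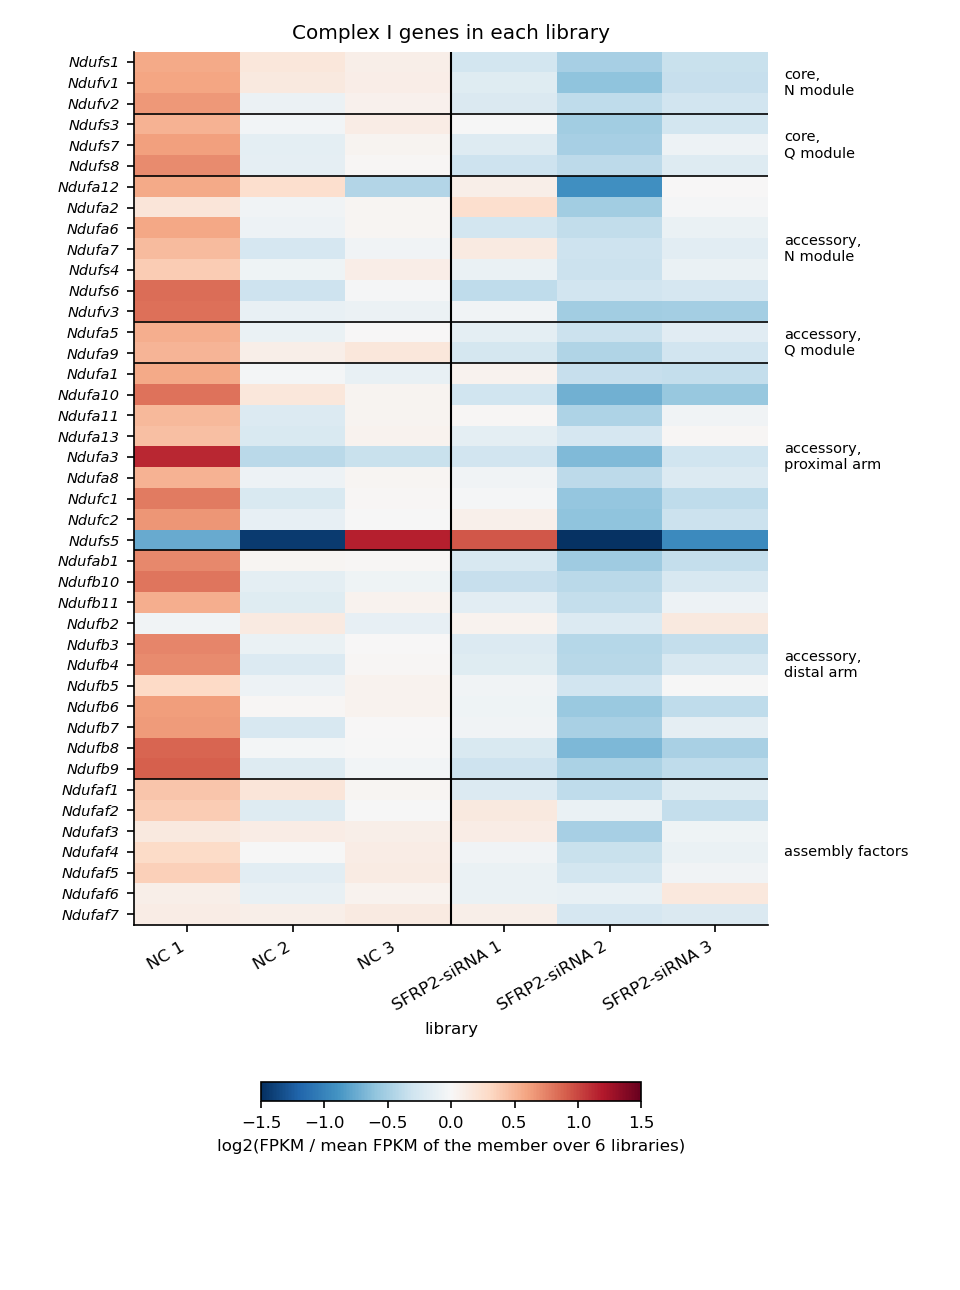
Level of each of the 42 genes (rows, grouped by role and module) in each of the 6 libraries (columns), as the log2 ratio of its FPKM to its own mean over the 6 libraries. NC 1 is the highest library for 37 genes and SFRP2-siRNA 2 the lowest for 38, and the row of Ndufs5 departs from the rest.

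Ndufv1 and Ndufs1, both of the N module, had the largest log2 fold changes of the core genes. Ndufv1 (ENSMUSG00000037916, chromosome 19), which binds NADH and the flavin that first takes its electrons, stood at 111, 81.8 and 79.4 FPKM in NC and at 65.3, 48.8 and 58.1 FPKM in those labelled SFRP2-siRNA. Every NC library was above every other library, and the log2 fold change was -0.65 ± 0.20 (SE, unadjusted p = 0.0149, adjusted p = 0.518). Ndufs1 (ENSMUSG00000025968, chromosome 1), the large iron-sulphur protein of this module, stood at 27.2, 20.6 and 19.4 FPKM in NC and at 15.1, 12.96 and 14.6 FPKM in the other group. Its groups did not overlap either, and its log2 fold change of -0.61 ± 0.16 had the smallest unadjusted p of the 42 members (0.00793). The value for Ndufs1 was -0.47 and that for Ndufv1 -0.49 without NC 1. Ndufv2 (chromosome 17), whose iron-sulphur cluster lies beside the flavin, stood at 100.2, 60.3 and 67.0 FPKM against 55.3, 49.1 and 52.5 FPKM. NC 1 alone was far up, but NC 2 and NC 3 were also above the other group (log2 fold change -0.49 ± 0.22, unadjusted p = 0.0574).

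In the Q module, Ndufs8 (chromosome 19), an iron-sulphur protein on the path to ubiquinone, stood at 106, 58.8 and 65.4 FPKM in NC and at 52.2, 49.1 and 56.3 FPKM in those labelled SFRP2-siRNA. The groups did not overlap, by a margin of NC 2 over SFRP2-siRNA 3 that was small beside the excess of NC 1. Ndufs7 (chromosome 10), which holds the last iron-sulphur cluster before ubiquinone, stood at 73.6, 43.3 and 49.4 FPKM against 41.7, 33.8 and 45.6 FPKM. Ndufs3 (chromosome 2) stood at 71.3, 48.3 and 53.5 FPKM against 49.5, 34.5 and 41.0 FPKM. For both genes 1 library labelled SFRP2-siRNA exceeded NC 2, and the log2 fold changes were -0.42 ± 0.23 for Ndufs7 and -0.45 ± 0.21 for Ndufs3, with unadjusted p of 0.116 and 0.0685.

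Among the accessory subunits of the matrix arm, Ndufa9 showed the clearest separation. It belongs to the Q module, where it binds a nucleotide cofactor near the junction with the membrane arm. Its level was 60.6, 45.1 and 48.0 FPKM in NC and 35.5, 31.1 and 35.01 FPKM in those labelled SFRP2-siRNA. The highest library of the second group was well below the lowest of NC, with a log2 fold change of -0.57 ± 0.16 (unadjusted p = 0.0100, adjusted p = 0.518) and -0.45 without NC 1. Ndufa5, also of the Q module, stood at 49.2, 31.5 and 33.9 FPKM against 30.3, 26.9 and 30.01 FPKM, a narrow gap apart from NC 1 (-0.36 ± 0.19, unadjusted p = 0.110).

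Of the 7 accessory genes of the N module, Ndufa6 and Ndufs4 had groups without overlap. Ndufa6, which anchors the acyl carrier protein to the matrix arm, stood at 59.7, 37.7 and 40.8 FPKM against 32.8, 30.8 and 37.2 FPKM. Ndufs4, whose loss in mice causes a Leigh-like brain disease, stood at 35.2, 25.8 and 28.8 FPKM against 25.3, 21.6 and 25.2 FPKM. In both genes the lowest NC library exceeded the highest of the other group by less than 1 FPKM, and the log2 fold changes were -0.42 ± 0.20 and -0.30 ± 0.16 with unadjusted p of 0.0808 and 0.108. Ndufa2, with a thioredoxin-like fold, was close to level, at 99.6, 84.3 and 89.0 FPKM in NC and 105, 61.1 and 86.8 FPKM in the other group (-0.14 ± 0.23), and its sign turned (0.07) without SFRP2-siRNA 2. The log2 fold changes of Ndufa7, of the zinc-binding Ndufs6 and of Ndufv3 were -0.16, -0.47 and -0.55, all with overlapping groups, and that of Ndufa7 was 0.04 without NC 1.

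The proximal membrane arm held both the largest and the least steady differences. Ndufa10 (ENSMUSG00000026260, chromosome 1), a subunit with a nucleoside kinase-like fold on the matrix face, stood at 110, 70.2 and 64.2 FPKM in NC and at 50.7, 37.9 and 42.1 FPKM in those labelled SFRP2-siRNA. The groups were clearly separate, and the log2 fold change of -0.86 ± 0.24 was the largest of the 42 (unadjusted p = 0.00975, adjusted p = 0.518). It was -0.62 without NC 1, and -1.02 at its most extreme over the alternatives. It was the 1 gene of the 9 in this arm without overlap between the groups. Ndufa3, singled out after its values were seen, stood at 114 FPKM in NC 1 and between 33.0 and 42.7 FPKM in the other 5 libraries. Its log2 fold change of -0.54 ± 0.41 was -0.05 without NC 1, so that 1 library made the difference. The proximal genes Ndufa1, Ndufa8, Ndufa11, Ndufa13, Ndufc1 and Ndufc2 had log2 fold changes between -0.48 (Ndufc1) and -0.22 (Ndufa13), all with overlap. Of the 42 genes, Ndufa8 followed the mean pattern of the subunits most closely (SD of its deviation over the 6 libraries 0.0471 on the log2 scale, against a median of 0.152).

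In the distal membrane arm, 6 of 11 genes had no overlap between the groups and the median log2 fold change was -0.53, against -0.44 in the N module, -0.45 in the Q module and -0.37 in the proximal arm. Without NC 1 the medians were -0.23, -0.20, -0.24 and -0.19 in the same order, so the ranking of the modules rested on that library. Ndufb8 (chromosome 19), a single-pass membrane subunit, stood at 92.5, 49.6 and 50.7 FPKM in NC and at 43.4, 31.8 and 36.1 FPKM in those labelled SFRP2-siRNA. NC 1 was far above all others, yet NC 2 and NC 3 also exceeded the other group (-0.73 ± 0.27, unadjusted p = 0.0335), and the value without NC 1 was -0.44. Ndufab1, the mitochondrial acyl carrier protein that also serves fatty acid and lipoic acid synthesis, stood at 17.8, 11.1 and 10.99 FPKM against 9.17, 7.48 and 8.45 FPKM (-0.58 ± 0.20, unadjusted p = 0.0262). Ndufb6, another membrane subunit, stood at 64.8, 42.4 and 43.5 FPKM against 40.3, 28.5 and 32.1 FPKM (-0.55 ± 0.22, unadjusted p = 0.0422). Both genes kept the NC libraries above the rest, and both had adjusted p of 0.518.

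The 3 accessory genes with the highest levels also belong to the distal arm. Ndufb10 stood at 268, 139 and 147 FPKM in NC and at 120, 116 and 130 FPKM in the other group, and Ndufb3 at 249, 140 and 151 FPKM against 130, 112 and 116 FPKM. Neither overlapped between groups, with log2 fold changes of -0.53 ± 0.28 and -0.54 ± 0.25 (unadjusted p = 0.0995 and 0.0708). Ndufb11 (chromosome X) stood at 214, 129 and 152 FPKM against 131, 114 and 139 FPKM, and here SFRP2-siRNA 1 and 3 exceeded NC 2. Ndufb9, at 55.5, 26.1 and 28.9 FPKM against 24.1, 21.6 and 23.0 FPKM, had separate groups, and its difference of -0.58 ± 0.28 was -0.25 without NC 1. Ndufb4, Ndufb5 and Ndufb7 had log2 fold changes of -0.44, -0.18 and -0.35 with overlap.

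Ndufb2 was the single member above 0 as deposited, and it was below 0 with median-of-ratios scaling (-0.07) and when mitochondrially encoded genes were left out of the scaling (-0.04). It was listed at 0.858, 0.978 and 0.818 FPKM in NC and at 0.923, 0.769 and 0.988 FPKM in the other group (0.01 ± 0.11, unadjusted p = 0.959). These values are far below those of its neighbours in the distal arm and rest on 196 to 262 reads over a gene model of 5628 bases. Its exons share bases with 2 other gene models of the GENCODE vM21 annotation, and the sources used here do not state how reads in shared exons were counted or whether strand was used. In all, 9 of the 42 members share exonic bases with an overlapping gene, among them Ndufs1, Ndufab1, Ndufb6, Ndufb8 and Ndufb9.

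The assembly factors stood at lower levels than most subunits, between 2.56 and 15.3 FPKM over the 7 genes and 6 libraries. Their median log2 fold change of -0.22 was nearer to 0 than that of the accessory genes (-0.42), but not without NC 1 (-0.19 against -0.18). Ndufaf1, which acts in building the membrane arm, stood at 15.3, 13.1 and 11.7 FPKM in NC and at 9.995, 8.81 and 10.1 FPKM in those labelled SFRP2-siRNA. Its groups were separate, and its log2 fold change of -0.43 ± 0.14 was the largest of the 7 (unadjusted p = 0.0186, adjusted p = 0.518) and -0.34 without NC 1. Ndufaf4, a partner of Ndufaf3 in early Q module assembly, stood at 8.42, 6.89 and 7.47 FPKM against 6.66, 5.48 and 6.46 FPKM, also without overlap (-0.25 ± 0.13). Ndufaf7, a mitochondrial methyltransferase needed for assembly, stood at 7.19, 7.10 and 7.29 FPKM against 7.05, 5.61 and 5.71 FPKM, and was among the few members in which NC 1 was not the highest library. SFRP2-siRNA 1 lay just under the NC values there, so the separation of its groups was narrow (-0.21 ± 0.13, unadjusted p = 0.145).

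Ndufaf3 stood at 5.42, 5.29 and 5.22 FPKM in NC and at 5.30, 3.47 and 4.67 FPKM in the other group, so that SFRP2-siRNA 1 was level with NC. Ndufaf5, which hydroxylates Ndufs7, had a log2 fold change of -0.22 ± 0.15, and Ndufaf2, a chaperone of the N module, one of -0.13 ± 0.17. Ndufaf6 stood at 3.96, 3.46 and 3.89 FPKM against 3.49, 3.47 and 4.18 FPKM, and its log2 fold change of -0.02 ± 0.12 changed sign in 4 of the alternatives tried.

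The most discordant member was Ndufs5, a small subunit of the proximal arm that faces the intermembrane space. It stood at 9.73, 6.08 and 36.9 FPKM in NC and at 31.4, 5.88 and 8.44 FPKM in those labelled SFRP2-siRNA, high in 1 library of each group and low in the other 4. Its log2 fold change of -0.15 ± 0.77 had the widest error of the 42. A processed pseudogene, BC002163 (ENSMUSG00000081824) on chromosome 16, is nearly identical to the coding sequence of Ndufs5 on chromosome 4: 317 of 319 aligned bases agree. The stretch that holds both differences is printed here because no other aligned base tells the genes apart. The alignment covers 319 of the 680 bases of the Ndufs5 transcript, and how reads that map to both genes were counted is not given in the sources used here. It runs 5′ to 3′ over coding bases 56 to 130, counted from the A of the start codon, in the GENCODE vM21 transcripts, with the differing bases (T81C and A105G, the base of Ndufs5 first) in capitals.
Ndufs5: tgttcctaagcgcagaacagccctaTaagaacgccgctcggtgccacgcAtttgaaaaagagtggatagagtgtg
BC002163: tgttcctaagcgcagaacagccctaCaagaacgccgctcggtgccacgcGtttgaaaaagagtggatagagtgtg

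The pseudogene was high where Ndufs5 was low. BC002163 held 3096, 2185 and 1194 reads in NC 1, 2 and 3 and 810, 1801 and 2194 reads in SFRP2-siRNA 1, 2 and 3. Ndufs5 held 369, 245 and 1453 and then 1158, 229 and 342 reads. Ndufs5 thus took 10.6%, 10.1% and 54.9% of the summed reads in NC and 58.8%, 11.3% and 13.5% in the other group. The sum itself was far steadier, at 78.5, 51.9 and 57.8 RPM (reads scaled to the mapped reads of the library) in NC and 45.8, 44.8 and 53.8 RPM in the other group. NC 1 was again the highest library of the sum, as for most other subunits. When the pseudogene's reads were added to those of Ndufs5, an alternative chosen after seeing the data, the log2 fold change was -0.36 ± 0.20 (unadjusted p = 0.114, adjusted p = 0.536). The share of Ndufs5 in the sum divided the libraries without regard to the groups. The cause was not tested.

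**Figure D3:**
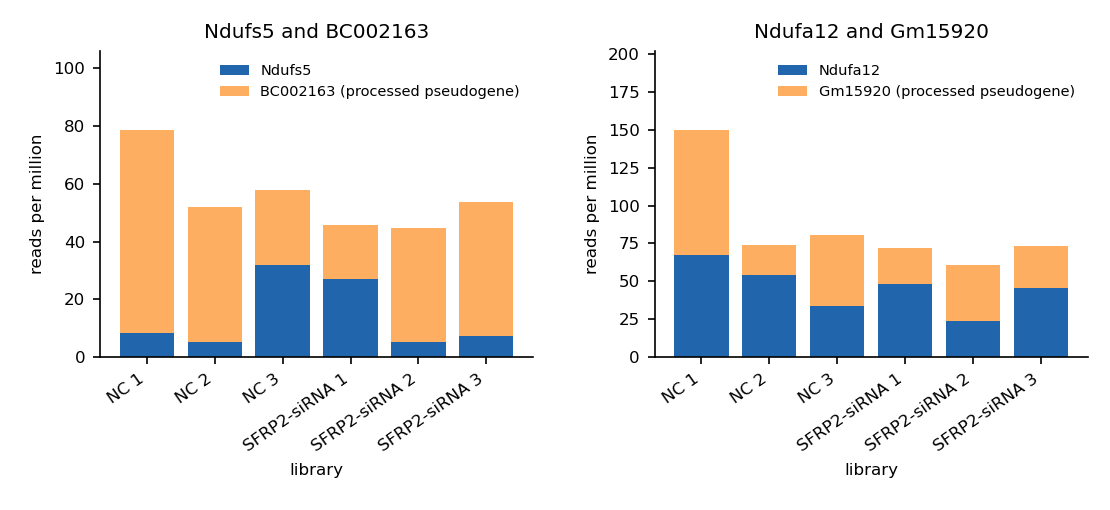
RPM (y axis, labelled in full) in each library (x axis) for Ndufs5 and BC002163 (left) and for Ndufa12 and Gm15920 (right), the gene and its processed pseudogene stacked. The Ndufs5 part is 27.0 to 31.7 RPM in NC 3 and SFRP2-siRNA 1 and 5.06 to 8.36 in the other 4 libraries, and the summed bars vary less.

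Ndufa12, a late-joining subunit of the N module, showed a similar division and was also singled out after its values were seen. Its levels were 42.8, 34.4 and 21.3 FPKM in NC and 30.6, 15.3 and 28.9 FPKM in those labelled SFRP2-siRNA, with wide overlap (-0.39 ± 0.34). The processed pseudogene Gm15920 on chromosome 5 matches it at 400 of 402 aligned bases, with the differences A135G and T414C. Both are shown as above, over coding bases 110 to 160 and 389 to 438.
Ndufa12 first: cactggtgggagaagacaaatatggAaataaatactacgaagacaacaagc
Gm15920 first: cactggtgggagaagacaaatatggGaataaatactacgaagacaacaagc
Ndufa12 second: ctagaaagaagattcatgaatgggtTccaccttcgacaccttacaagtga
Gm15920 second: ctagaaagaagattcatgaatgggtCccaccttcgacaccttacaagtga

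Ndufa12 took 44.9%, 73.0% and 41.4% of the summed reads in NC and 67.1%, 39.4% and 61.8% in the other group. The sum was 150, 74.0 and 80.7 RPM in NC and 71.6, 60.8 and 73.3 RPM in the other group, so the groups no longer overlapped. With the sum in place of the gene, the log2 fold change was -0.49 ± 0.28 (unadjusted p = 0.127). Of the 42 members, 8 have such processed pseudogenes in GENCODE vM21 (at least 95% identity over 100 bases), 10 in all, and 8 of these were in the table. For Ndufab1, Ndufb4, Ndufb11, Ndufs3 and Ndufs6, the gene itself held at least 89.9% of the summed reads in every library.

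Since nearly all members were lower in the same libraries, their promoters were searched for short motifs of factors known for driving respiratory chain genes. RefSeq promoters (build GRCm38.p6, from 250 bases before to 50 after the annotated start) were found for 38 of 42 members, 40 promoters in all. The NRF1 letters GCGCATGCG or GCGCACGCG, on either strand, stood in 6 of 40 (15%) and in 3.36% of all 32851 promoters. The YY1 letters AAGATGGCG stood in 5 (12.5%, against 1.40%), the ETS letters CCGGAAG in 5 (12.5%, against 8.86%), the oestrogen-related receptor letters AAGGTCA in 3 (7.5%, against 4.72%) and the CRE letters TGACGTCA in 3 (7.5%, against 1.79%). GCGCATGCG overlaps its own reverse complement, and such a pair counts as 1 promoter. A match is a stretch of letters, not a site of binding.

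The 5 promoters with the YY1 letters all carry them just downstream of the start, between 22 and 43 bases after the start base, and in the same orientation as the gene. They belong to Ndufa9, Ndufc1, Ndufs4, Ndufs6 and Ndufs7, and are printed 5′ to 3′ with the motif in capitals because position and strand are shared. The letters contain ATG. Whether this is the start codon of each gene, which would by itself fix the strand and place the match after the start, was not tested. The log2 fold changes of the 5 genes ranged from -0.57 (Ndufa9) to -0.30 (Ndufs4).
Ndufa9, chr6:126849101-126849121, minus strand: tgggagAAGATGGCGgccgcc
Ndufc1, chr3:51408919-51408939, minus strand: cggaacAAGATGGCGccgtcc
Ndufs4, chr13:114388045-114388065, minus strand: tacaggAAGATGGCGgcggtc
Ndufs6, chr13:73328435-73328455, minus strand: accggcAAGATGGCGgcggtg
Ndufs7, chr10:80249467-80249487, plus strand: gaggccAAGATGGCGgcgctg

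Longer stretches, of 150 bases from 130 before the start, are shown for the gene with the largest difference (Ndufa10, with the CRE letters), for the gene nearest to the common pattern (Ndufa8, with the NRF1 letters at the start) and for Ndufb4 (with the letters of the oestrogen-related receptors). Capitals mark the motif.
Ndufa10, chr1:92473739-92473888, minus strand: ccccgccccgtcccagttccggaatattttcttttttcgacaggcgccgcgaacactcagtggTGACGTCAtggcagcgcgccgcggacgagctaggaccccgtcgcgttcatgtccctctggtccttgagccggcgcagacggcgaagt
Ndufa8, chr2:36049319-36049468, minus strand: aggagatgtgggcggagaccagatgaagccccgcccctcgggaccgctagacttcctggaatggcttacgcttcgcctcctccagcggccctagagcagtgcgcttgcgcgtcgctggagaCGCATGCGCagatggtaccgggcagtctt
Ndufb4, chr16:37654349-37654498, minus strand: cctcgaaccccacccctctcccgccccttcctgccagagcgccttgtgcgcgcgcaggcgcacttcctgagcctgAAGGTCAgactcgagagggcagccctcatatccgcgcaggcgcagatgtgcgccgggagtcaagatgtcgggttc

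The genes of such regulators were divided in direction. Of 10 genes for coactivators, transcription factors and mitochondrial transcription proteins, 6 were below 0, the log2 fold changes ran from -0.44 to 0.20 with a median of -0.09, and 1 had an unadjusted p under 0.05. That gene was Ppargc1b, a coactivator of mitochondrial genes, at 2.42, 2.69 and 1.79 FPKM in NC and 1.42, 1.53 and 1.32 FPKM in those labelled SFRP2-siRNA. Its groups did not overlap (-0.44 ± 0.14, unadjusted p = 0.0169, adjusted p = 0.518), and its mean was 61.9% of that in NC. The related coactivator Ppargc1a stood at 1.73, 2.02 and 1.46 FPKM against 0.788, 1.10 and 1.52 FPKM, where SFRP2-siRNA 3 exceeded NC 3 (-0.37 ± 0.16, unadjusted p = 0.0588), and its mean was 65.4% of that in NC. At such low levels the scale log2(FPKM + 1) understates the ratio. Of factors whose letters were searched, Nrf1 and Yy1 were above 0, at 0.13 and 0.20. Gabpa, an ETS factor, and Esrra, an oestrogen-related receptor, were at -0.06 and -0.16.

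The mitochondrially encoded partners of complex I were lower as well, by more. All 7 mt-Nd genes were below 0, with a median log2 fold change of -0.9995, and 6 had no overlap between the groups. mt-Nd1 stood at 33809, 14114 and 12125 FPKM in NC and at 11825, 9064 and 9931 FPKM in those labelled SFRP2-siRNA, and mt-Nd2 at 17000, 8169 and 6150 FPKM against 5100, 3815 and 4478 FPKM. NC 1 was again far above the rest. The log2 fold changes were -0.81 ± 0.56 for mt-Nd1, -1.10 ± 0.49 for mt-Nd2, -1.001 ± 0.46 for mt-Nd4, -0.88 ± 0.39 for mt-Nd5 and -0.9995 ± 0.52 for mt-Nd6. Unadjusted limma p for these genes ran from 0.0628 (mt-Nd2) to 0.191 (mt-Nd1). Without NC 1 the median of the 7 was -0.59. mt-Nd3, at 23.4, 18.4 and 11.7 FPKM against 12.9, 6.47 and 8.29 FPKM, was the 1 gene with overlap. mt-Nd4l stood apart with 234 FPKM in NC 2 against 56.7 and 46.1 FPKM in the other NC libraries. It was at 21.3 to 26.5 FPKM in the other group. These levels are far below those of mt-Nd4, at 10934.5, 5280 and 4152 FPKM in NC. How reads shared between genes were counted is not given in the sources used here, and the cause of the NC 2 value was not tested. Reads of mitochondrially encoded proteins made up 18.5%, 9.77% and 7.75% of each NC library and 7.17%, 5.37% and 6.03% of each other library. With the values rescaled without these genes, the medians were -0.59 for core, -0.52 for accessory and -0.30 for assembly genes, and 42 of 42 members were below 0.

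Other genes of the respiratory chain were mostly lower too. Of 13 further complex I genes tested, 10 were below 0 with a median log2 fold change of -0.16, and Foxred1, an assembly factor, had the smallest unadjusted p (0.0193), at -0.46 ± 0.15. All 9 complex III genes and all 11 complex IV genes were below 0, with medians of -0.62 and -0.48, and the groups did not overlap for 9 and 7 of them. The smallest unadjusted p was 0.00405 for Uqcrc2, a complex III core protein (-0.68 ± 0.16), and 0.0318 for Cox5a of complex IV (-0.48 ± 0.18). Of 8 complex II genes 6 were below 0 (median -0.29), but this list, unlike those of complexes III and IV, includes assembly factors. Sdha, the flavoprotein of complex II, had -0.84 ± 0.19 with an unadjusted p of 0.00377. The other subunits Sdhb, Sdhc and Sdhd had -0.76, -0.46 and -0.49, and none of the subunits overlapped between the groups. The assembly factors ran from -0.11 (Sdhaf3) to 0.08 (Sdhaf1). Of 11 genes for iron-sulphur cluster assembly, on which the core subunits depend, 9 were below 0 with a median of -0.10, and Bola3 had the smallest unadjusted p (0.0396, -0.67 ± 0.26). The smallest adjusted p in these lists was 0.518. Without NC 1 the medians were -0.09 for the further complex I genes, -0.35 for complex III, -0.29 for complex IV, -0.17 for complex II and -0.06 for iron-sulphur cluster assembly.

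Markers of brown fat, a tissue rich in mitochondria, were lower in the same libraries. Of 5 markers all were below 0 with a median log2 fold change of -1.51, 4 had no overlap between the groups, and none was at 0 FPKM in any library. Ucp1, the uncoupling protein that defines brown fat, stood at 1061, 615 and 314 FPKM in NC and at 157, 39.9 and 19.1 FPKM in those labelled SFRP2-siRNA. The summed level of the 5 genes was 2160, 1203 and 746 FPKM against 477, 225 and 205 FPKM. Of these, Cox7a1 and Cox8b themselves encode complex IV subunits, and Elovl3, at -0.06 ± 0.20, had overlapping groups. Summed levels of general adipocyte markers overlapped, at 1771 to 2176 FPKM in NC and 948 to 2440 FPKM in the other group, and so did those of skeletal muscle, at 3328 to 6555 FPKM and 4473 to 12488 FPKM. The summed levels of fibroblast and macrophage markers were higher without overlap in the libraries labelled SFRP2-siRNA, at 2028 to 2118 against 823 to 1831 FPKM and at 1202 to 1628 against 578 to 1060 FPKM. Gene by gene, 5 of 6 fibroblast and 2 of 6 macrophage markers lay wholly higher, against 2226 of the 16005 genes tested. Over all genes that count was 844 with median-of-ratios scaling, and the marker counts are given as deposited only. The part of these cell types in the complex I differences was not tested.

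**Figure D4:**
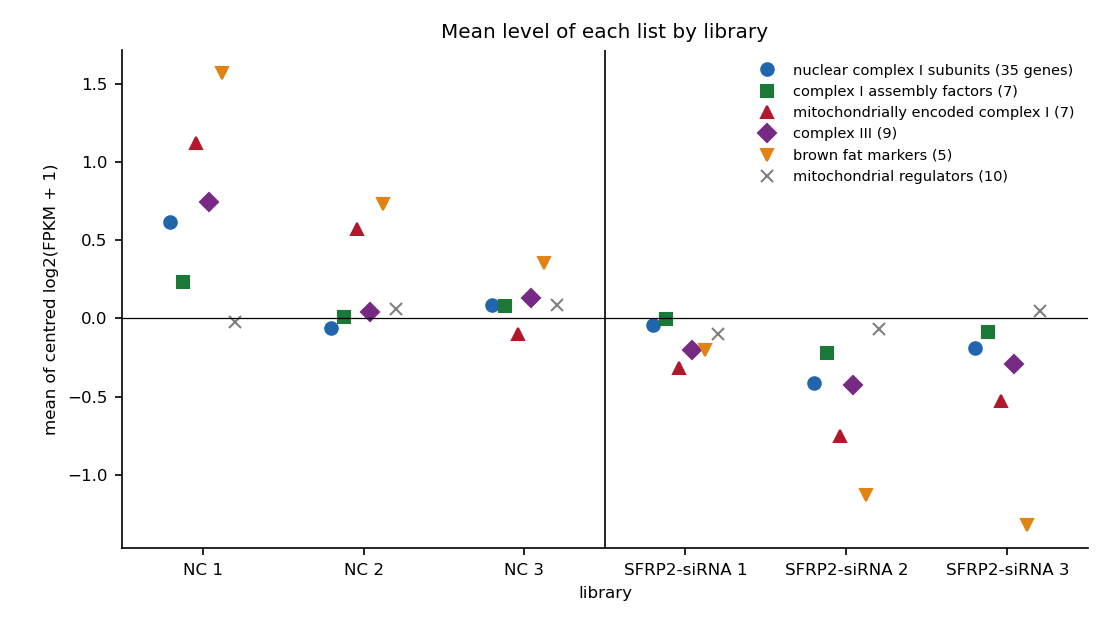
Mean of centred log2(FPKM + 1) (y axis) of 6 gene lists in each library (x axis, NC left of the line), 1 point per list and library. The 35 subunits stand at 0.62 in NC 1, and the mitochondrially encoded genes (1.12) and brown fat markers (1.57) stand higher there, while the mean of the 10 regulators stays between -0.10 and 0.08.

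The pattern of the 35 subunits over the 6 libraries was compared with that of 4960 other genes of at least 10 FPKM, as a description without a test. The nearest were Cox7b (Pearson r = 0.995), Atp5j2 (0.994), Uqcrq (0.993), Uqcr10 (0.992) and Mrpl39 (0.990). In Cox7b the levels were 274, 157 and 174 FPKM in NC and 158, 125 and 138 FPKM in the other group, so NC 1 and SFRP2-siRNA 2 again marked the ends. The gene that ran most nearly opposite was Plpp3 (-0.989), which stood at 24.8, 36.2 and 33.2 FPKM in NC and at 36.3, 44.9 and 42.4 FPKM in the other group. The 6 points share their libraries and depth with the subunits, and 64 of the 4960 genes exceeded 0.95.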

How the data were processed

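Paired-end mRNA libraries were aligned and counted by the authors with HISAT2 and featureCounts (Subread), per the submitters' processing notes, and deposited as FPKM per Ensembl gene. Versions, genome build, annotation and strand setting are not given in the sources used here. Symbols came from a GENCODE vM21 table (32582 of 33184 IDs). For 98.3% of the genes with a vM21 length the FPKM were whole reads (tolerance 0.02 reads), which gave each library's depth of 42925444 to 47117132 reads. Reads of these genes summed to 97.0 to 98.0% of that depth, so it holds mainly reads counted to genes. FPKM are not counts, so limma 3.58.1 (R 4.3.3, intensity trend, two-sided, Benjamini-Hochberg over all genes) was run on log2(FPKM + 1), which understates changes of low genes, after a filter at a mean of 0.5 FPKM. Transcripts were compared with BLAST+ 2.17.0. The limma script was tested on simulated data. The members and gene lists were chosen with earlier results of these data known. Named genes were the core and assembly genes, accessory genes by p, fold change or level, and list genes by p. The other accessory genes are named to account for every member. Further list genes, such as Ppargc1a, the factors of the searched letters and the other complex II genes, were named outside this rule. Ndufa3 and Ndufa12 were singled out after their values were seen. The alternatives were another pseudocount, other filters and scalings, no trend, a replicate block, sample weights, leaving out each library, and, added after seeing the data, voom on the recovered reads and pseudogene reads summed with their gene. Some genes are not reported here.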

Additional observations from a re-analysis of the deposited data

How the results depend on the processing

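No gene was called under any of the 17 alternatives, and the smallest adjusted p over all of them was 0.119, with sample weights. The members kept their direction in 697 of 713 refits. The 16 refits that turned belonged to 5 members whose values lay near 0 or, for Ndufs5, had a wide error. Ndufb2 was -0.0703 with sample weights, -0.0733 with median-of-ratios scaling and -0.0414 when rescaled without mitochondrially encoded genes, and Ndufaf6 was 0.0558 when rescaled to equal sums. With each library left out in turn, Ndufb2 ranged from -0.0304 to 0.0539, Ndufaf6 from -0.0891 to 0.0170, Ndufs5 from -0.820 to 0.556, Ndufa7 from -0.313 to 0.0438 and Ndufa2 from -0.314 to 0.0689. Leaving out 1 library also moved the number of members lower at an unadjusted p under 0.05 between 3 (without SFRP2-siRNA 2) and 15 (without NC 2), with 5 without SFRP2-siRNA 3. The number of members wholly lower was between 18 and 30 (without NC 2). Leaving out a library can only keep or raise such a count, so its range is no check on it. With all 6 libraries it was 18 members and 628 genes. Over all genes, the number at an unadjusted p under 0.05 moved between 887 (without NC 1) and 1970, with 948 without SFRP2-siRNA 2, the number of these that were lower between 302 and 583, and the number wholly lower between 884 and 1275. The medians ranged from -0.65 to -0.29 for core, -0.61 to -0.18 for accessory and -0.30 to -0.16 for assembly genes, and Sfrp2 from 1.12 to 1.98.

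Sample weights gave 21 members and 817 genes (5.1% of all) lower at an unadjusted p under 0.05, against 8 and 458. The weight was 5.27 for SFRP2-siRNA 2, 0.360 for NC 1 and 0.495 to 1.21 for the other libraries, so that fit leaned on SFRP2-siRNA 2. Rescaling without mitochondrially encoded genes gave 13 members and 651 genes (4.07% of all). Median-of-ratios scaling gave 770 such genes, 1259 genes wholly lower and an assembly median of -0.36, and moved the median of all genes to 0.000396. Without the filter on low values, 699 genes were lower at that p and 1027 wholly lower, with more genes tested. The cause of the other moves was not tested.

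Same-numbered libraries of the groups shared only a number. Their deviations from the group means correlated at -0.05, -0.15 and 0.38. With the replicate block, 14 members and 674 genes (4.21% of all) were lower at an unadjusted p under 0.05, and no gene was called.

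With 3 libraries a group, an exact test cannot reach 0.05, and Ndufb2, below 1 FPKM, rests on 196 to 262 reads. FPKM carry each library's share of mitochondrial reads in their denominator, so the scaling bears on every value.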
